A study of Mus musculus with 2 samples.

Results

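The BCL2 family genes described here were 10 of the 31054 features counted in mouse bladder, taken by gene symbol, and each symbol matched 1 feature. Of these, 4 encode anti-apoptotic proteins (Bcl2, Bcl2l1, Bcl2l2 and Mcl1) and 6 encode pro-apoptotic proteins (Bax, Bak1, Bbc3, Pmaip1, Bcl2l11 and Bid). BCL2 family proteins meet at the outer membrane of mitochondria, where BAX and BAK can form pores that release cytochrome c and start the caspase cascade. The anti-apoptotic proteins hold these pore formers and their activators in check, and the BH3-only proteins PUMA, NOXA, BIM and BID relieve that hold or activate the pore formers directly. Senescent cells are widely described as resistant to apoptosis, and inhibitors of anti-apoptotic members are used as senolytic drugs, which remove such cells.

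The Tom+ library held live, CD45-negative, tdTomato-positive bladder cells of 1 male mouse aged 25 months, and the Tom- library held the tdTomato-negative cells of the same sort from the same bladder. The mouse had the genotype p16-CreERT2/R26-LSL-tdTomato and was killed 2 weeks after 5 daily injections of tamoxifen, so both groups share genotype, drug and animal. In such mice Cre follows the p16 promoter and needs tamoxifen to act, and a recombined cell keeps the reporter whatever p16 does later. The reporter therefore marks past p16 expression, and the gates left out leukocytes and DAPI-stained dead cells.

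Each group was 1 library, so differences between groups have no replicate check and no test was made. Intervals are exact 95% intervals that cover counting error only, and they treat UMIs as independent. After filtering, 1881 of 2783 Tom+ and 9886 of 13551 Tom- barcodes were used, with medians of 11579 and 12773 UMIs, and tdTomato stood at 1214 CPM in all Tom+ and 37.4 CPM in all Tom- barcodes. CPM is a gene's share of the UMIs of the same cells, scaled so that all genes sum to the same total in each class and library. The cells formed 27 clusters, and marker genes gave names to clusters of 10 classes, of which 6 had at least 50 cells in each library. These were fibroblast-like (734 Tom+ and 4529 Tom- cells), umbrella urothelial-like (416 and 1429), endothelial-like (173 and 684), mesothelial-like (161 and 764), basal or intermediate urothelial-like (118 and 503) and lymphatic endothelial-like cells (89 and 196). Own markers were higher than in the other named classes for all listed markers in 5 of these classes, and for 6 of 8 in basal or intermediate cells. The libraries shared 966 barcodes, which among used cells were 346 Tom+ and 657 Tom- barcodes, and their largest share of Tom+ cells in the 6 classes was 66 of 161, in the mesothelial-like class. Values without these barcodes are given beside the differences between libraries that they touch most.

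Mcl1, which encodes a short-lived survival protein, held most anti-apoptotic UMIs in all 6 classes, with 68.5% to 81.1% of the UMIs of the 4 anti-apoptotic genes. The gene (ENSMUSG00000038612) lies at chr3:95658788-95663176 on the plus strand (GRCm38, which is mm10). The highest levels were in the endothelial-like class, with 299.7 CPM (274 to 327) among Tom+ and 333 CPM (317 to 349) among Tom- cells. In lymphatic endothelial-like cells they were 274 CPM (227 to 326) among Tom+ and 267 CPM (239 to 298) among Tom- cells. Both vascular classes thus stood above fibroblast-like cells, which held 166 CPM among Tom+ and 159.7 CPM among Tom- cells, and the endothelial to fibroblast ratio was 1.81 (1.62 to 2.01) in Tom+ and 2.08 (1.98 to 2.20) in Tom- cells. Basal or intermediate, umbrella and mesothelial-like cells lay lowest, between 129 and 133 CPM among Tom+ and between 116 and 131 CPM among Tom- cells. In Tom+ cells the intervals of these 3 classes overlapped, as did those of the 2 vascular classes. Summed UMIs of 18 dissociation and immediate-early genes stood at 11638 CPM among Tom+ and 11430 CPM among Tom- endothelial-like cells, at 8095 and 8217 CPM in fibroblast-like cells, and at 13027 and 13060 CPM in umbrella cells. Their part in the Mcl1 levels was not tested.

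Within the umbrella class Mcl1 was not even. A cluster led by Krt20, the gene of a keratin of terminally differentiated umbrella cells, Hoxb9 and Hbegf had 254 CPM of Mcl1 among Tom+ and 199 CPM among Tom- cells. The larger cluster, led by the uroplakin gene Upk3a, had 122 CPM among Tom+ and 112 CPM among Tom- cells. The Krt20-led level was 2.08 times the Upk3a-led level (1.83 to 2.36) in Tom+ cells and 1.78 times (1.64 to 1.93) in Tom- cells. The Krt20-led cluster held 42 Tom+ cells, of which 19 had shared barcodes, and 192 Tom- cells, of which 54 did. Without those barcodes the ratio in Tom- cells was 1.82 (1.67 to 1.97), and too few Tom+ cells were left for a value. Summed dissociation and immediate-early genes stood at 19547 CPM among Tom+ and 19501 CPM among Tom- cells of the Krt20-led cluster, and at 12528 and 12631 CPM in the Upk3a-led cluster, and their part in the Mcl1 levels was not tested. None of the 10 members was among the 2000 variable genes that made the clusters.

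Bcl2, the founding member of the family (ENSMUSG00000057329, chr1:106538178-106714274, minus strand), was highest in fibroblast-like cells among the 6 classes. It stood far higher in Schwann-like cells. Fibroblast-like cells held 31.2 CPM (27.1 to 35.8) among Tom+ and 26.8 CPM (25.4 to 28.2) among Tom- cells. The other 5 classes ranged from 6.67 to 16.2 CPM among Tom+ and from 7.77 to 13.6 CPM among Tom- cells. In Tom+ cells the fibroblast interval lay apart from the next class, the endothelial one, and the rest overlapped their neighbours in the order. Schwann-like cells, the glia of peripheral nerve, were found in the Tom- library, with 49 cells, 99 Bcl2 UMIs and 341 CPM (277 to 415). That is 12.7 times (10.3 to 15.6) the level of Tom- fibroblast-like cells, and 81.6% of the Schwann-like cells held a Bcl2 UMI at a median of 6039 UMIs per cell. In erythroid-like cells the share was 8.70% at a median of 23444 UMIs. The Schwann-like cluster had all 6 Schwann markers above the other classes but was led by Lyz2, Kcna2 and Kcna1, and Lyz2 is also a macrophage marker.

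Bcl2 also differed among fibroblast-like states. The cluster led by Cilp, Sfrp4 and Gdf10, all genes of extracellular or secreted proteins, held 64.3 CPM among Tom+ and 58.2 CPM among Tom- cells. The other fibroblast-like clusters together held 23.6 CPM among Tom+ and 22.4 CPM among Tom- cells. The Cilp-led level was therefore 2.72 times the rest (2.03 to 3.63) in Tom+ cells and 2.60 times (2.30 to 2.94) in Tom- cells, the same direction in both libraries. Without shared barcodes, which were 40 of 137 Tom+ and 97 of 571 Tom- cells of that cluster, the ratios were 3.20 and 2.62.

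Bcl2l1, which encodes BCL-XL (ENSMUSG00000007659, chr2:152780668-152831728, minus strand), was lowest where Bcl2 was highest among the 6 classes. Fibroblast-like cells held it, at 14.1 CPM (11.4 to 17.3) among Tom+ and 17.7 CPM (16.6 to 18.9) among Tom- cells. Endothelial-like cells held 33.6 CPM among Tom+ and 45.4 CPM among Tom- cells, and lymphatic endothelial-like cells held 37.8 and 37.4 CPM. The urothelial and mesothelial-like classes lay between, at 21.0 to 29.5 CPM among Tom+ and 22.1 to 30.5 CPM among Tom- cells, and all neighbours in the Tom+ order overlapped. Bcl2l1 also differed within the endothelial class. In Tom- cells the clusters led by Flt1 and by Fabp4 held 62.6 CPM together and the cluster led by Lrg1, Tmem252 and Vwf held 26.7 CPM, a ratio of 2.35 (1.75 to 3.18). In Tom+ cells the same clusters held 48.6 and 30.3 CPM, a ratio of 1.60 with an interval of 0.83 to 2.94.

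Erythroid-like cells, which were found in the Tom- library (69 cells), had 107 Bcl2l1 UMIs and 54 Mcl1 UMIs. Bcl2l1 thus made up 60.8% of their anti-apoptotic UMIs, against 5.996% to 16.6% in the 6 classes above. BCL-XL is known as the survival protein of late red cell precursors. Haemoglobin and other erythroid markers took 754065 CPM in these cells, which lowers the CPM of every other gene there, so the shares among members are the better guide. Schwann-like cells also had a high Bcl2l1 level, 103 CPM (69.7 to 147) from 30 UMIs.

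Bcl2l2, the gene of BCL-W (ENSMUSG00000089682, chr14:54883377-54888234, plus strand), was highest in lymphatic endothelial-like cells, with 57.8 CPM (37.8 to 84.7) among Tom+ and 44.1 CPM (33.0 to 57.6) among Tom- cells. The other classes held 15.2 to 23.6 CPM among Tom+ and 14.2 to 25.5 CPM among Tom- cells. The lymphatic to fibroblast ratio was 2.45 (1.55 to 3.72) in Tom+ and 2.18 (1.62 to 2.87) in Tom- cells, from 26 and 53 lymphatic UMIs. In Tom+ cells the lymphatic interval was apart from all 5 other classes. The gene overlaps the readthrough gene Gm20521 on the same strand, which had 0 UMIs in both libraries.

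**Figure D1:**
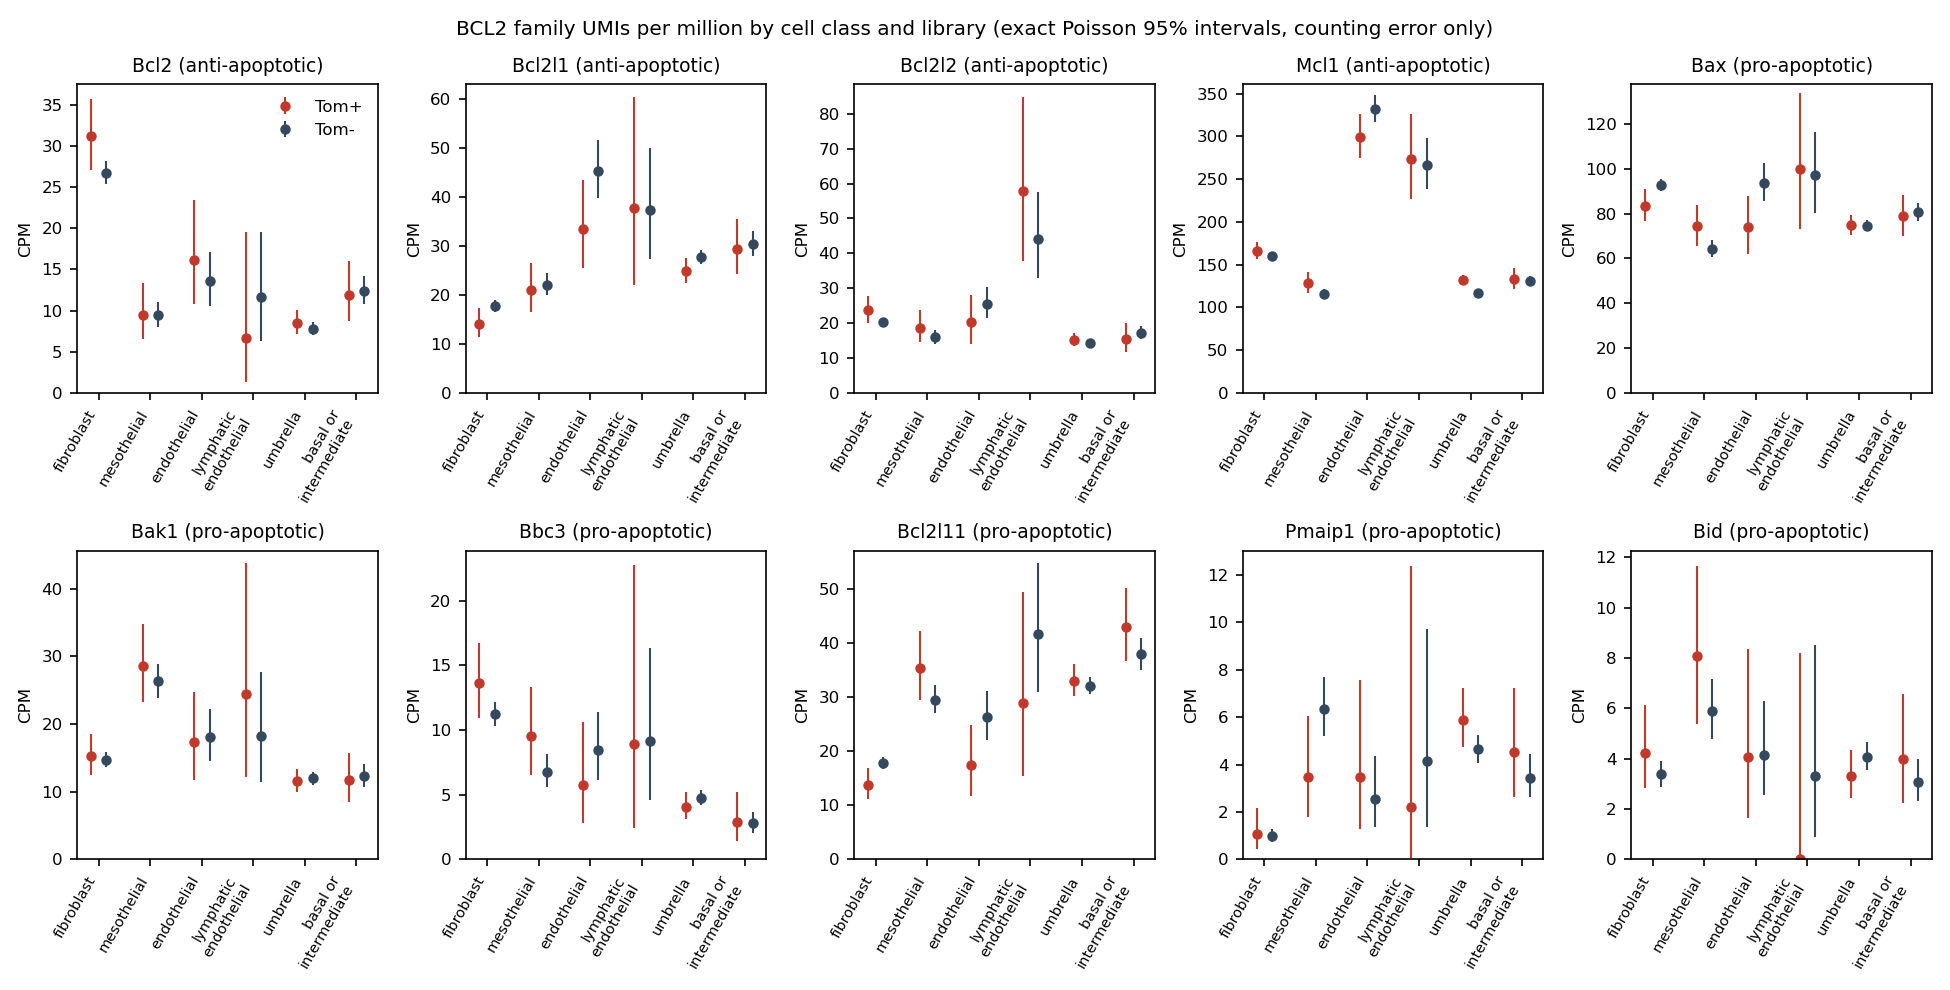
CPM (vertical axis, starting at 0) of the 10 members in the 6 classes compared (horizontal axis), with Tom+ points left of Tom- points and bars for exact Poisson 95% intervals. Mcl1 stood highest in the endothelial-like and lymphatic endothelial-like classes in both libraries, Bcl2 and Bbc3 in fibroblast-like cells, Bak1 in mesothelial-like cells. Most pairs of Tom+ and Tom- points of Mcl1 and Bcl2 lie close beside the spread between classes, but those of Bax in endothelial-like cells, at 74.1 and 93.7 CPM, do not.

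Among the pore-forming proteins, Bax (ENSMUSG00000003873, chr7:45461697-45466898, minus strand) was the most even gene of the family. It held 74.1 to 100.1 CPM among Tom+ and 64.2 to 97.3 CPM among Tom- cells over the 6 classes, and all neighbours in the Tom+ order overlapped. In Tom- cells the fibroblast interval (90.0 to 95.3) lay apart from the basal or intermediate one (76.6 to 84.9). The highest Tom- class level was 1.51 times the lowest (1.24 to 1.83). Gm45808, which overlaps it on the same strand, had 0 UMIs. Bax made up 46.2% to 65.8% of the pro-apoptotic UMIs in these classes. Bak1 (ENSMUSG00000057789, chr17:27019810-27029009, minus strand), its partner in pore formation, was highest in mesothelial-like cells, with 28.5 CPM (23.2 to 34.7) among Tom+ and 26.3 CPM (23.9 to 28.8) among Tom- cells. Fibroblast-like cells held 15.3 CPM among Tom+ and 14.7 CPM among Tom- cells, which puts the mesothelial level at 1.87 times (1.40 to 2.49) and 1.79 times (1.59 to 2.01) the fibroblast level.

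The mesothelial Bak1 came mostly from a cluster led by Saa3, Cxcl5 and Ccl2, which encode an acute-phase protein and 2 chemokines. This cluster held 38.2 CPM of Bak1 among Tom+ and 37.5 CPM among Tom- cells. The cluster led by Prg4, the gene of lubricin, held 16.5 CPM among Tom+ and 16.0 CPM among Tom- cells. The ratio was 2.32 (1.39 to 4.02) in Tom+ and 2.35 (1.91 to 2.91) in Tom- cells. Of the Saa3-led cells, 47 of 70 in Tom+ and 8 of 306 in Tom- had shared barcodes, and without them the Tom- ratio was 2.34 (1.90 to 2.89), with too few Tom+ cells left for a value. Bak1 overlaps Ggnbp1 on the other strand, which had 174 Tom+ and 920 Tom- UMIs, and whether the counting used strand is not given in the sources used here.

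Bcl2l11 and Bbc3 set fibroblast-like and basal or intermediate cells apart in opposite ways. Bcl2l11, the gene of BIM (ENSMUSG00000027381, chr2:128126038-128162547, plus strand), had 43.0 CPM (36.6 to 50.1) among Tom+ and 37.9 CPM (35.1 to 40.8) among Tom- basal or intermediate cells. This was the highest level among Tom+ classes, whereas lymphatic endothelial-like cells came first among Tom- classes with 41.6 CPM, with overlapping intervals. It was lowest in fibroblast-like cells, with 13.8 CPM (11.1 to 16.9) among Tom+ and 17.8 CPM (16.6 to 19.0) among Tom- cells. The basal to fibroblast ratio was 3.12 (2.40 to 4.08) in Tom+ and 2.13 (1.93 to 2.36) in Tom- cells. Bbc3, the gene of PUMA and a classic p53 target (ENSMUSG00000002083, chr7:16308393-16318205, plus strand), ran the other way between these classes. Of the 6 classes it was highest in fibroblast-like cells, at 13.6 CPM (10.96 to 16.8) among Tom+ and 11.2 CPM (10.3 to 12.2) among Tom- cells. It was lowest in basal or intermediate cells, at 2.92 CPM among Tom+ and 2.79 CPM among Tom- cells, from 11 and 50 UMIs. The basal to fibroblast ratio of Bbc3 was 0.21 (0.10 to 0.40) in Tom+ and 0.25 (0.18 to 0.33) in Tom- cells.

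Both genes are known targets of FOXO factors, so their RefSeq promoter windows (GRCm38.p6, 250 bases before to 50 bases after the start of transcription) were read for the FOXO motif GTAAACA on both strands. It was found in 1 of 2 windows of Bcl2l11 and in 1 of 3 windows of Bbc3, and in none of the other 9 windows of the 9 members with an entry. Of 32851 mouse promoter windows of the same length, 3.65% held it. The windows with a match are shown to set genes with opposite fibroblast and basal levels beside their promoters, with the motif in capitals: Bcl2l11 at chr2:128125788-128126087 and Bbc3 at chr7:16310011-16310310, both on the plus strand, 5′ to 3′.
Bcl2l11: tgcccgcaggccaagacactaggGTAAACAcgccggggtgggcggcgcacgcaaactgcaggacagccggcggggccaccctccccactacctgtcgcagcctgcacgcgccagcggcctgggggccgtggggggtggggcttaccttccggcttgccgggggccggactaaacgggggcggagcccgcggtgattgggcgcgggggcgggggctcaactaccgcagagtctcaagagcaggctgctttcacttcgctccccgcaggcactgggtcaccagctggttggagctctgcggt
Bbc3: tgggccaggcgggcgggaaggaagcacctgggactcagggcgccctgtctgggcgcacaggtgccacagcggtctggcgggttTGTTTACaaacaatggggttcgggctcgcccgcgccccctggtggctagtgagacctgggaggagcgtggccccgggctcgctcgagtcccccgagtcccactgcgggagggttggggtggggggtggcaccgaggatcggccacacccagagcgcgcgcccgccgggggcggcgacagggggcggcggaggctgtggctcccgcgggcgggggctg
The Bbc3 window has the motif on the other strand. A sequence match is a description of these letters and shows no binding. A p53 half-site match, which 8.36% of windows held, was found in the window of Bax alone among these 9 members, and a GC box, held by 35.7% of windows, was found in windows of 7 of the 9 members.

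Pmaip1 and Bid were scarce. Pmaip1, the gene of NOXA (ENSMUSG00000024521, chr18:66458533-66465565, plus strand), held 1.06 CPM among Tom+ and 0.98 CPM among Tom- fibroblast-like cells, from 7 and 50 UMIs. It reached 5.88 CPM among Tom+ and 4.65 CPM among Tom- umbrella cells, and 3.46 CPM among Tom+ and 6.36 CPM among Tom- mesothelial-like cells. Bid (ENSMUSG00000004446, chr6:120891930-120916853, minus strand), which links death receptors to mitochondria, was highest of the 6 classes in mesothelial-like cells, at 8.07 CPM among Tom+ and 5.88 CPM among Tom- cells. It held 3.29 to 4.24 CPM among Tom+ and 3.06 to 4.13 CPM among Tom- cells of the other classes with a Bid UMI in Tom+ cells. Lymphatic endothelial-like cells had 0 Bid UMIs in Tom+ cells, which allows up to 6.67 CPM at a one-sided limit of 3 counts, and 3.33 CPM among Tom- cells. Bid overlaps Bcl2l13 on the other strand, which had 513 Tom+ and 2279 Tom- UMIs. Neither Pmaip1 nor Bid met the level set for comparing libraries in any class.

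Members were compared between libraries in the classes where 1 library or both reached 10 CPM and the UMIs summed to 20 or more, which was so for 40 of 60 pairs of member and class. None was at least 1.5 times apart after adding 1 CPM, in any of the 6 classes or over all used cells. Beside that count of 0, genes 1.5 times apart in either direction were 3.06% of all measured genes in fibroblast-like cells, 3.21% in mesothelial-like cells, 12.7% in endothelial-like cells and 20.1% in lymphatic endothelial-like cells. They were 0.399% in umbrella cells, 1.06% in basal or intermediate cells and 5.08% over all used cells. Split by direction, 1.39% were higher and 1.66% lower in Tom+ fibroblast-like cells, 1.95% and 1.26% in mesothelial-like cells, 3.52% and 9.15% in endothelial-like cells and 8.27% and 11.9% in lymphatic endothelial-like cells. The shares were 0.0399% higher and 0.359% lower in umbrella cells, 0.413% and 0.650% in basal or intermediate cells, and 0.550% and 4.52% over all used cells. With 6 to 8 measured members per class, a count of 0 is near these shares and is no result about the members. The median log2 ratio of the members was 0.05 in fibroblast-like cells, where that of all measured genes was -0.01, and -0.32 in endothelial-like cells, where that of all genes was -0.11. The ratios ran from 0.66 for Bcl2l11 in endothelial-like cells to 1.34 for Bak1 in lymphatic endothelial-like cells, and 11 of the 40 intervals excluded 1. The share of all measured genes whose interval excluded 1 was not counted, so this number is no result about the members.

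In fibroblast-like cells the survival genes did not lie on 1 side. Bcl2 held 31.2 CPM among Tom+ and 26.8 CPM among Tom- cells, a ratio of 1.17 (1.002 to 1.35). Bcl2l1 held 14.1 CPM among Tom+ and 17.7 CPM among Tom- cells, a ratio of 0.79 (0.63 to 0.98). Bcl2 and Bcl2l2, also at 1.17 (0.98 to 1.38), were thus on the higher side and Bcl2l1 on the lower side, while Mcl1 was at 1.04 (0.97 to 1.11). Of the pro-apoptotic genes, Bax had a ratio of 0.90 (0.83 to 0.99) and Bcl2l11 one of 0.78 (0.62 to 0.96), while Bbc3 was at 1.22 (0.96 to 1.52) and Bak1 at 1.04 (0.84 to 1.28). Without shared barcodes the ratios were 1.21 for Bcl2 (1.03 to 1.40), 0.81 for Bcl2l1 (0.64 to 1.02), 0.92 for Bax (0.83 to 1.01) and 0.81 for Bcl2l11 (0.64 to 1.01). Those of Bbc3, at 1.28 (1.006 to 1.61), and Bcl2l2, at 1.20 (1.0005 to 1.43), then excluded 1. The mean of sub-cluster ratios put Bcl2 at a log2 ratio of 0.11, 0.01 and -0.05 at resolutions of 0.3, 0.5 and 0.8, so its direction was not kept across fibroblast states.

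**Figure D2:**
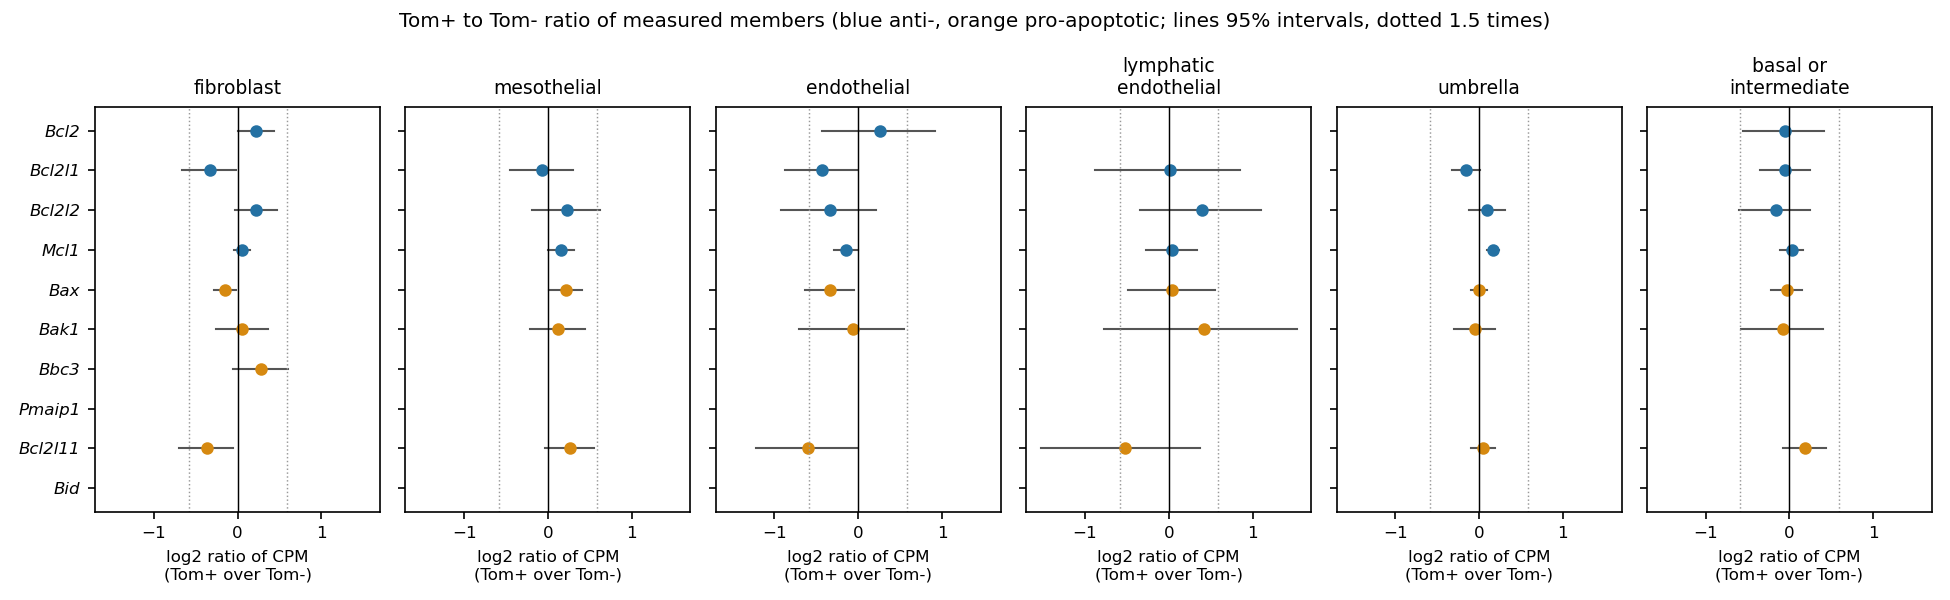
Log2 ratio of CPM, Tom+ over Tom- (horizontal axis), for each member (rows) that was measured in a class (panels), with blue points for anti-apoptotic and orange points for pro-apoptotic members, lines for exact 95% intervals and dotted lines at 1.5 times. Most intervals cross 0, and the lowest point is Bcl2l11 in endothelial-like cells at a ratio of 0.66, which 1 added CPM moves inside the dotted line.

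Endothelial-like cells had lower values of several members in Tom+ cells. Bcl2l11 held 17.4 CPM among Tom+ and 26.3 CPM among Tom- cells, a ratio of 0.66 (0.43 to 0.99). Bcl2l1 was at 0.74 (0.54 to 0.99), Bax at 0.79 (0.64 to 0.96) and Mcl1 at 0.90 (0.81 to 0.99). Without shared barcodes, Bcl2l11 was at 0.71 (0.45 to 1.09), an interval that holds 1. Bcl2l1 was then at 0.59 (0.40 to 0.83), Bax at 0.77 (0.62 to 0.96) and Mcl1 at 0.88 (0.79 to 0.99). The cluster led by Lrg1 and Vwf made up 77.5% of Tom+ and 40.6% of Tom- endothelial-like cells, so the class had a different make-up in each library. Within that cluster alone, Bax held 71.2 CPM among Tom+ and 71.0 CPM among Tom- cells, and Bcl2l1 held 30.3 and 26.7 CPM. Without shared barcodes the Bcl2l1 levels there were 21.8 CPM among Tom+ and 26.8 CPM among Tom- cells, which turns the direction, and the ratio of 0.81 had an interval of 0.49 to 1.32. With all barcodes, Mcl1 was at a ratio of 0.80 (0.71 to 0.90) and Bcl2l11 at 0.57 (0.33 to 0.95) in that cluster, and without the shared ones at 0.76 (0.67 to 0.87) and 0.60 (0.33 to 1.03). The summed dissociation and immediate-early genes stood at 12248 CPM in its Tom+ and 15757 CPM in its Tom- cells. Summed fibroblast markers stood at 165 CPM among Tom+ and 956 CPM among Tom- endothelial-like cells and summed erythroid markers at 60.8 and 912 CPM. Epithelial lists ran the other way, with basal or intermediate urothelial markers at 642 CPM among Tom+ and 269 CPM among Tom- cells. Umbrella markers stood at 315 and 94.7 CPM, and mesothelial markers at 245 and 137 CPM. The part of these lists in the ratios was not tested.

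In umbrella cells Mcl1 held 132 CPM among Tom+ and 117 CPM among Tom- cells, a ratio of 1.12 (1.07 to 1.18). With all barcodes the ratio was above 1 in both umbrella clusters, at 1.28 (1.11 to 1.47) in the Krt20-led and 1.09 (1.04 to 1.15) in the Upk3a-led cluster. Without shared barcodes the Upk3a-led ratio was 1.05 (0.99 to 1.12), and too few Krt20-led Tom+ cells were left for a value. The class ratio was then 1.06 (1.001 to 1.12). In mesothelial-like cells Mcl1 stood at 1.12 (1.004 to 1.24) and Bax at 1.16 (1.01 to 1.33), and without shared barcodes Mcl1 was at 0.97 (0.82 to 1.14) and Bax at 1.15 (0.93 to 1.41). No measured member had an interval that excluded 1 in basal or intermediate or in lymphatic endothelial-like cells.

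The balance is the log2 of pro-apoptotic over anti-apoptotic UMIs, so that a value below 0 means more UMIs of the survival genes. It was below 0 in all 6 classes of both libraries. Endothelial-like cells had -1.60 (-1.83 to -1.37) in Tom+ and -1.44 (-1.56 to -1.33) in Tom- cells, and lymphatic endothelial-like cells had -1.19 and -1.05. Fibroblast-like cells followed with -0.84 (-0.96 to -0.71) in Tom+ and -0.67 (-0.72 to -0.63) in Tom- cells. Urothelium and mesothelium lay nearest to 0. Umbrella cells had -0.44 in Tom+ and -0.34 in Tom- cells, basal or intermediate cells had -0.39 and -0.45, and mesothelial-like cells had -0.16 and -0.23. Of the classes seen in the Tom- library alone or nearly so, 3 lay lowest, with -2.15 (-2.69 to -1.64) in Schwann-like, -1.97 (-2.47 to -1.49) in erythroid-like and -1.66 (-2.07 to -1.27) in 59 smooth muscle-like cells, a cluster that Rgs5, a pericyte gene, also led. The prostate or seminal vesicle-like class, with 250 of 356 Tom- cells on shared barcodes, had -0.50 (-0.93 to -0.06) in Tom- cells. The spread between classes, from -1.60 to -0.16 in Tom+ cells, was far wider than the gap between libraries in any class.

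**Figure D3:**
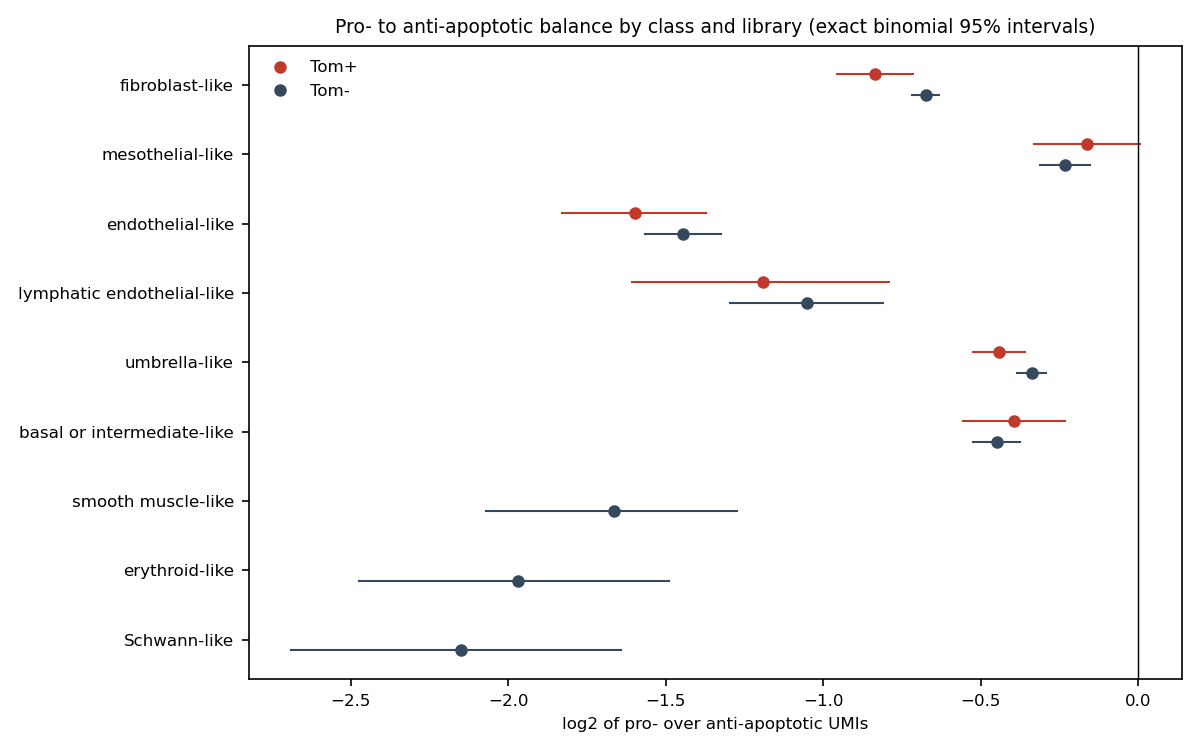
Log2 of pro-apoptotic over anti-apoptotic UMIs (horizontal axis) by class (rows), Tom+ points above Tom- points, with lines for exact binomial 95% intervals. Values run from -1.60 in Tom+ endothelial-like cells to -0.16 in Tom+ mesothelial-like cells among the 6 classes compared, and the 3 classes at the bottom were plotted for Tom- cells.

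The difference of the balance, Tom+ minus Tom-, was -0.16 (-0.29 to -0.03) in fibroblast-like cells and -0.10 (-0.20 to -0.01) in umbrella cells, the classes whose interval excluded 0. It was -0.15 (-0.42 to 0.10) in endothelial-like, -0.14 (-0.62 to 0.33) in lymphatic endothelial-like, 0.07 (-0.12 to 0.26) in mesothelial-like and 0.06 (-0.12 to 0.23) in basal or intermediate cells. Over all used cells it was -0.04 (-0.10 to 0.01), with balances of -0.60 in Tom+ and -0.55 in Tom- cells. Without shared barcodes the fibroblast difference was -0.12 (-0.26 to 0.01) and the umbrella difference -0.07 (-0.17 to 0.04), so that both intervals then held 0. Without Mcl1 in the sum the umbrella difference turned to 0.04, and in fibroblast-like cells it was -0.18.

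Fibroblast states covered a wider range of balance than the libraries did. The Cilp-led cluster had a balance of -1.49 in Tom+ and -1.30 in Tom- cells, and the cluster led by Dner, C1qtnf3 and Kcnn3 had -1.28 and -1.19. The cluster led by Chodl had -0.45 in Tom+ and -0.30 in Tom- cells. The Dner-led cluster also had little Bcl2l11, 6.56 CPM among Tom+ and 9.20 CPM among Tom- cells, against 15.2 and 18.0 CPM in the other fibroblast-like clusters, from 7 and 15 UMIs. These low-balance states were more common among Tom+ cells, where the Cilp-led cluster made up 18.7% of fibroblast-like cells and the Dner-led cluster 17.0%, against 12.6% and 3.82% in Tom- cells. In the 6 fibroblast-like clusters with 30 or more cells from each of the libraries the difference ran from -0.19 to 0.14, and each interval held 0.

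Sub-clusters made without the members, the pathway lists and tdTomato also set states apart. The largest by Tom+ cells, led by Dner, Cxcl12, Kcnn3 and Gucy1a1, held 44.3% of the fibroblast-like cells among Tom+ and 21.0% among Tom- cells. Its balance was -1.10 in Tom+ and -0.72 in Tom- cells, a difference of -0.38 (-0.62 to -0.15), and of -0.42 (-0.66 to -0.19) without shared barcodes. Bax held 71.7 CPM among Tom+ and 92.8 CPM among Tom- cells of that sub-cluster, a ratio of 0.77 (0.65 to 0.91), and Mcl1 held 172 and 152 CPM, a ratio of 1.13 (1.01 to 1.26). In this sub-cluster, the low-balance Dner-led cluster made up 37.8% of the Tom+ and 17.7% of the Tom- cells, and the cluster led by Cxcl12 made up 53.8% and 70.1%. Over all cells of those clusters, inside and outside the sub-cluster, the differences were -0.09 (-0.53 to 0.34) and -0.16 (-0.45 to 0.13). The part of this mix in the difference of the sub-cluster was not tested. The other sub-clusters with enough cells had mixed signs. The difference was 0.24 (-0.11 to 0.59) in the Bglap2-led and 0.16 (-0.12 to 0.45) in the Tmem100-led sub-cluster. It was -0.17 (-0.49 to 0.14) in the Gdf10-led and -0.26 (-0.79 to 0.27) in the Chodl-led sub-cluster. Each of these intervals held values of both signs, with and without shared barcodes. The equal-weight mean over sub-clusters was -0.17, -0.08 and -0.18 at resolutions of 0.3, 0.5 and 0.8.

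**Figure D4:**
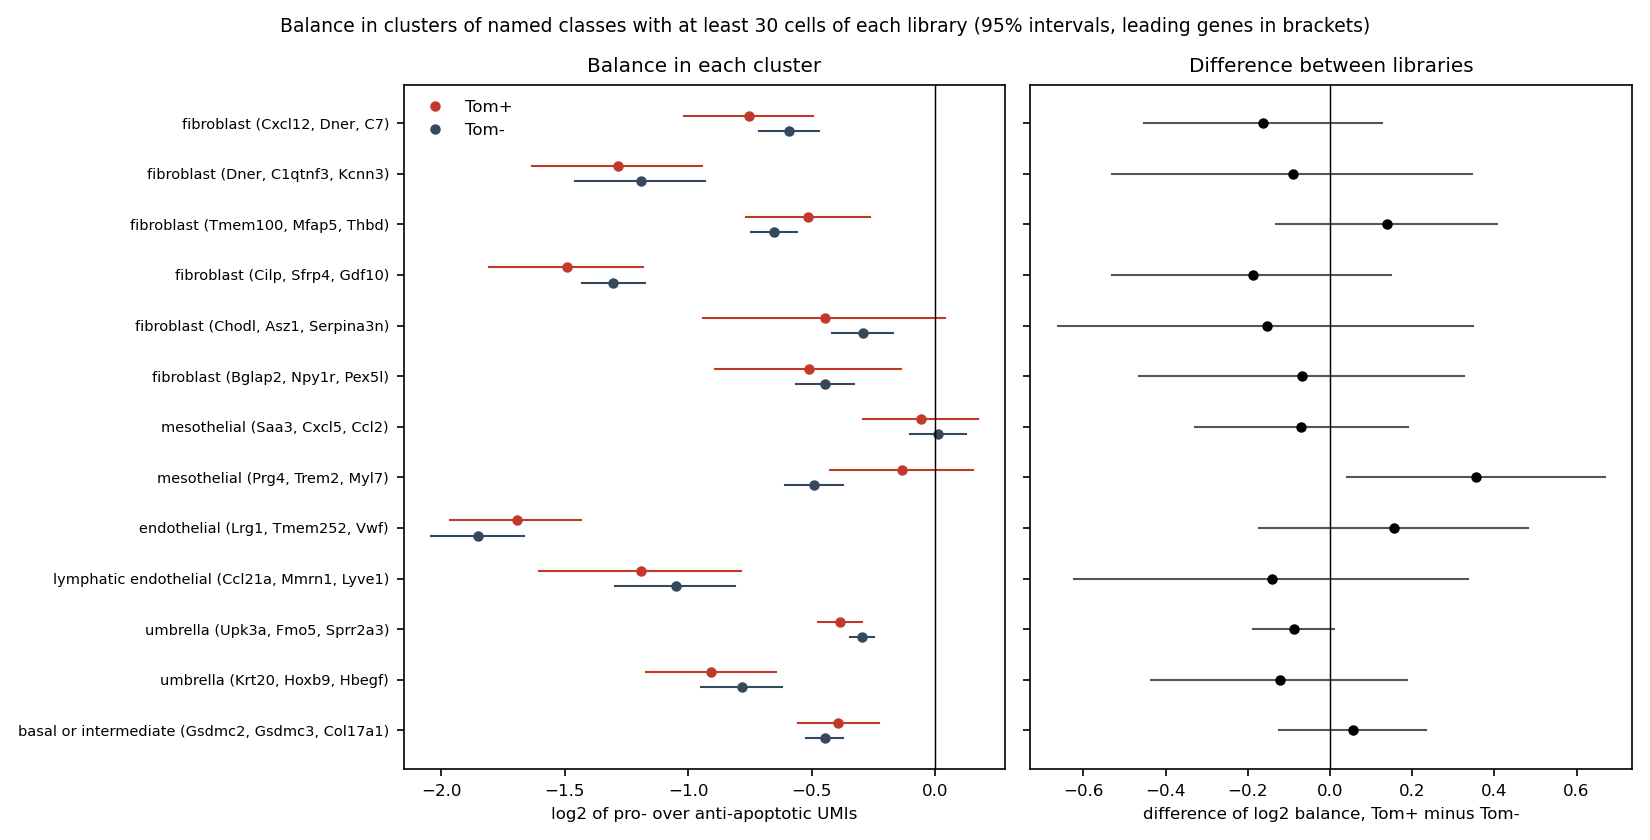
Log2 balance (left, horizontal axis, Tom+ points above Tom- points) and its difference, Tom+ minus Tom- (right), in the 13 clusters of named classes with 30 or more cells from each of the libraries, with 95% intervals as lines and leading genes in brackets. Differences ran from -0.19 to 0.36, and the Prg4-led mesothelial cluster is the 1 whose interval excludes 0.

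Of these 13 clusters, 9 had a lower balance in Tom+ cells, and 1 interval excluded 0. It belonged to the Prg4-led mesothelial cluster, with -0.14 in Tom+ and -0.49 in Tom- cells, a difference of 0.36 (0.04 to 0.67). In that cluster Bax held 76.8 CPM among Tom+ and 57.5 CPM among Tom- cells, a ratio of 1.34 (1.06 to 1.67), and Bcl2l11 held 45.4 and 32.9 CPM, a ratio of 1.38 (1.01 to 1.85). Bcl2l2 was higher as well, at 28.9 CPM among Tom+ and 16.1 CPM among Tom- cells, a ratio of 1.80 (1.20 to 2.62). Of its cells, 16 of 83 in Tom+ and 3 of 450 in Tom- had shared barcodes. Without them the balance was 0.14 among Tom+ and -0.49 among Tom- cells, a difference of 0.63 (0.26 to 1.003). The ratios were then 1.41 for Bax (1.08 to 1.81), 1.29 for Bcl2l11 (0.88 to 1.82), 1.65 for Bcl2l2 (1.01 to 2.58) and 0.82 for Mcl1 (0.65 to 1.03). Bid was then at 12.7 CPM among Tom+ and 3.13 CPM among Tom- cells, from 11 and 26 UMIs, a ratio of 4.06 (1.81 to 8.51). In the Lrg1-led endothelial cluster the balance was -1.69 in Tom+ and -1.85 in Tom- cells, a difference of 0.16 (-0.17 to 0.48), opposite in sign to that of the whole class.

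The make-up of each side of the balance was close between the libraries and changed with the class. Bcl2 made up 13.3% of anti-apoptotic UMIs in Tom+ and 11.9% in Tom- fibroblast-like cells, but 4.38% and 3.25% in endothelial-like cells. Bcl2l11 made up 10.5% of pro-apoptotic UMIs in Tom+ and 12.6% in Tom- fibroblast-like cells, but 29.7% and 27.03% in basal or intermediate cells. Schwann-like cells were the class where Bcl2 led, with 57.2% of anti-apoptotic UMIs and 21.4% for Mcl1. Each UMI counts 1 transcript read at its 3′ end, so counts are not scaled by gene length, but genes can still differ in how well their ends are captured.

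**Figure D5:**
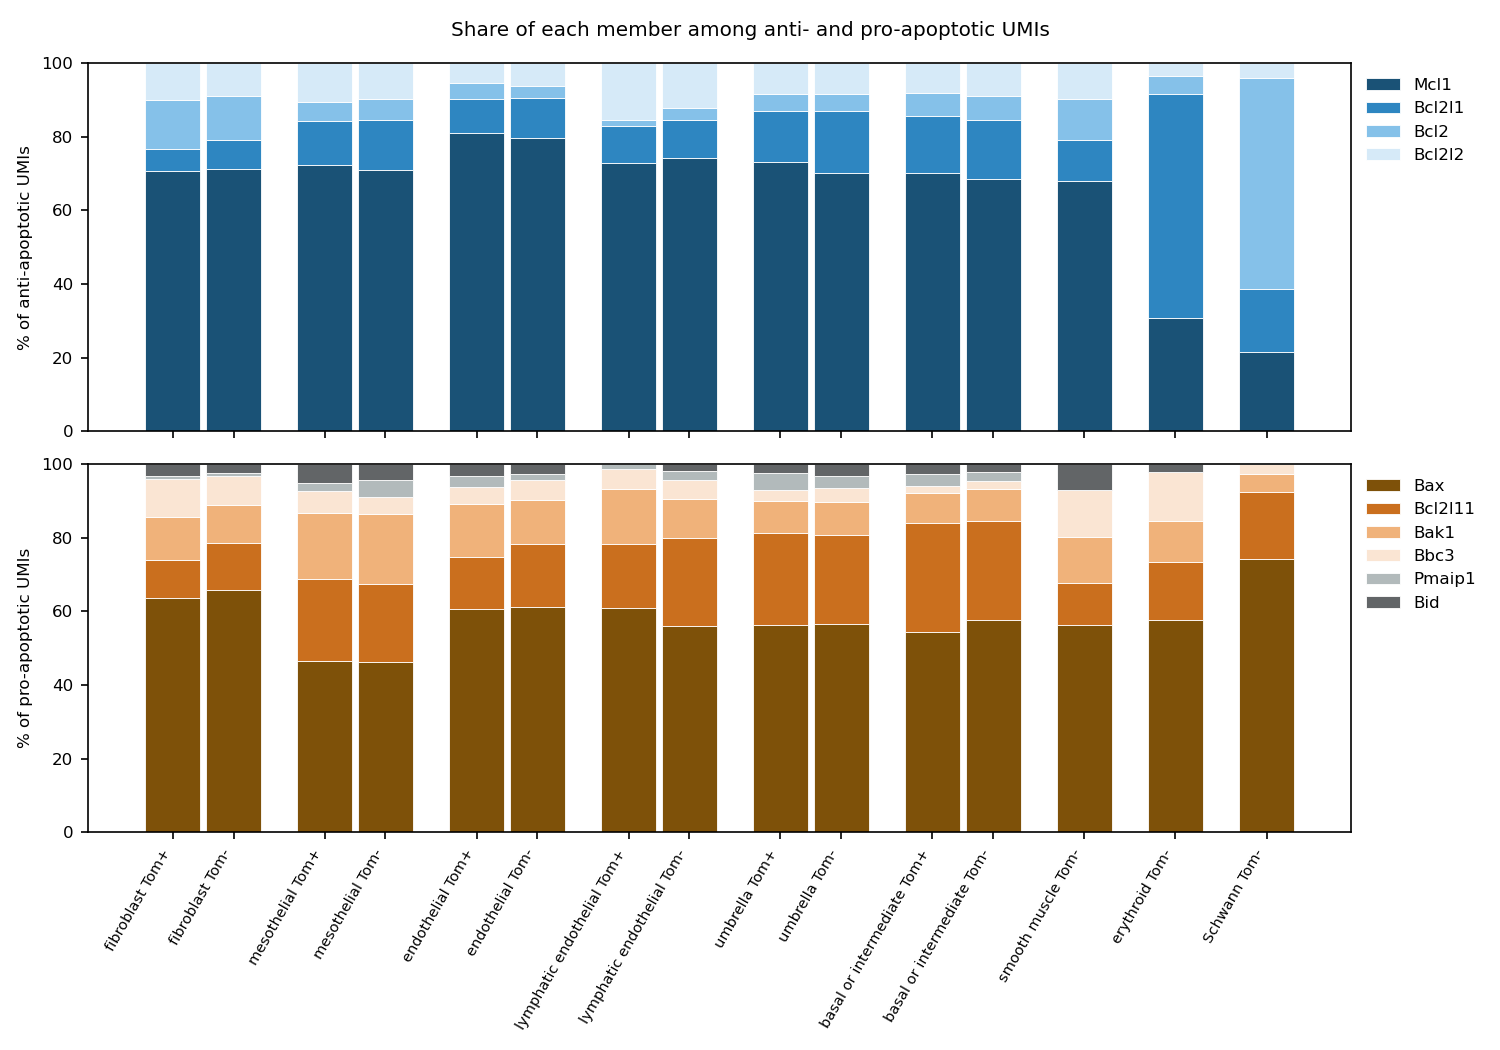
Share of each member among the anti-apoptotic UMIs (top) and the pro-apoptotic UMIs (bottom), in percent from 0 to 100, by class and library, Tom+ bars left of Tom- bars. Mcl1 fills 68.5% to 81.1% of the anti-apoptotic bars of the 6 classes compared, Bcl2l1 60.8% in erythroid-like and Bcl2 57.2% in Schwann-like cells.

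Other genes of the pathway were counted by the same rule of 1.5 times, in 9 lists. In fibroblast-like cells 0 members of these lists passed in either direction, among 5 to 18 measured genes per list. Genes are ranked within a list by the log2 ratio with 1 CPM added. Of the other BCL2 family genes, Bcl2l12 stood highest at a ratio of 0.97 (0.79 to 1.18), level with Bnip3, and Bmf, the gene of a BH3-only protein, lowest at 0.75 (0.55 to 1.004), with 7.57 CPM among Tom+ and 10.1 CPM among Tom- cells. Of the inhibitor of apoptosis genes, Birc3 stood highest at 1.19 (0.99 to 1.43) and Birc6 lowest at 1.02 (0.93 to 1.11). The intervals of these 4 genes all held 1, but other measured genes of the same lists had intervals that excluded it. Bok stood at 0.77 (0.67 to 0.88) and Bad at 0.86 (0.76 to 0.97), while Birc2 was at 1.14 (1.003 to 1.29) and Xiap at 1.10 (1.008 to 1.21). Of the apoptosome and mitochondrial effectors, the protease gene Htra2 was highest at 1.08 and the initiator caspase gene Casp9 lowest at 0.88. Of the death receptor genes, Ripk1 was highest at 1.12 and the TNF receptor gene Tnfrsf1b lowest at 0.88.

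Genes upstream of the members were as close between the fibroblast libraries. In the p53 arm, Sesn1 was highest at a ratio of 1.23 and Trp53 lowest at 0.94. Of the transcription factors known to act on members, Atf3 was highest at 1.16 and Myc lowest at 0.78. Fbxw7, the gene of a ubiquitin ligase subunit that marks MCL1 for destruction, was the lowest of the MCL1 turnover list, with 16.5 CPM among Tom+ and 22.2 CPM among Tom- cells, a ratio of 0.74 (0.60 to 0.90), and Huwe1 was the highest at 1.05, level with Btrc. The senescence marks ran from Cdkn2d at 0.97 to Cdkn1a, the gene of the cell-cycle inhibitor p21, at 1.19 (1.12 to 1.27), with 172 CPM among Tom+ and 145 CPM among Tom- cells. The dissociation genes ran from Ier2 at 0.79 (0.75 to 0.82) to Fosb at 1.24 (1.19 to 1.29). No gene of the 9 lists passed in umbrella or in basal or intermediate cells.

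Lymphatic endothelial-like cells had 5 of 10 measured genes of the p53 arm at least 1.5 times higher in Tom+ cells and none lower, where 8.27% of all measured genes were higher. These were Cdkn1a, Ccng1, Gdf15, Trp53inp1 and Phlda3. Cdkn1a held 247 CPM among Tom+ and 98.9 CPM among Tom- cells, a ratio of 2.50 (1.91 to 3.26). Gdf15, a secreted stress factor, held 57.8 CPM among Tom+ and 4.99 CPM among Tom- cells, from 26 and 6 UMIs. The other 3 had ratios of 1.80 to 2.58. Of the members that p53 is known to induce, Bax held 100.1 CPM among Tom+ and 97.3 CPM among Tom- cells, and Bbc3 held 8.90 and 9.15 CPM, from 4 and 11 UMIs. Also higher in Tom+ cells of this class were Bmf, Casp9, Cdkn2d, Hspa1a and Socs3, and lower were Bnip3, Myc and Fbxw7, where 11.9% of all measured genes were lower. The intervals of Bmf (11 Tom+ and 13 Tom- UMIs), Casp9 (9 and 11), Cdkn2d (12 and 18), Bnip3 (4 and 20) and Fbxw7 (8 and 41) held 1. Myc had 0 UMIs in Tom+ cells, which allows up to 6.67 CPM, and 20.8 CPM among Tom- cells. No barcode of the Tom+ cells in this class was shared between the libraries.

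In mesothelial-like cells 1 of 11 genes of the p53 arm was higher, Cdkn1a, with 83.0 CPM among Tom+ and 53.8 CPM among Tom- cells, where 1.95% of all measured genes were higher. Atf3, a stress-induced transcription factor gene, held 72.1 CPM among Tom+ and 44.4 CPM among Tom- cells, and Birc5, the survivin gene, which dividing cells express, held 18.2 and 0.89 CPM from 63 and 15 UMIs. Without shared barcodes Birc5 had 0 UMIs in Tom+ cells and 15 in Tom- cells, so its higher level rests on those barcodes. Cdkn1a was then at a ratio of 2.54 (2.16 to 2.98) and Atf3 at 2.24 (1.86 to 2.70). Endothelial-like cells had Perp, Myc and Dnajb1 higher in Tom+ cells and Fas, Htra2, Ccng1 and Btrc lower, where 3.52% of all measured genes were higher and 9.15% lower. The intervals of Htra2 (0.34 to 1.09) and Btrc (0.40 to 1.02) held 1. Fas, the gene of a death receptor, held 48.6 CPM among Tom+ and 94.7 CPM among Tom- cells, a ratio of 0.51 (0.40 to 0.65). Perp, a p53 target of epithelia and of the death pathway, held 65.4 CPM among Tom+ and 28.1 CPM among Tom- cells, a ratio of 2.33 (1.80 to 3.00). Without shared barcodes Perp was at 1.16 (0.81 to 1.63), below the limit of 1.5 times, and Fas at 0.58 (0.45 to 0.74).

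Genes with the profile most like each member were sought among 11380 genes over the 12 profiles of class and library, by Pearson r on the log2 scale with 1 CPM added. Profiles of the same class share lineage, and those of the same library share depth and sort, so the coefficients are descriptions. Mcl1 was nearest to Sema6b, Plekhg1 and Snrk, with 0.99 each. Bcl2 was nearest to Ncoa1, Robo2 and Ctbp1, at 0.95, 0.95 and 0.94, and Bcl2l1 to Actn4, Arhgap26 and Dazap2, at 0.97, 0.96 and 0.96. Bcl2l2 was nearest to Vtn, Foxc2 and Prrt4, at 0.98, 0.98 and 0.97. Of the pore formers, Bak1 was nearest to Pim1, Hspb11 and Eny2, at 0.98 each, and Bax to Zbtb39, Tril and C1galt1c1, at 0.93, 0.92 and 0.91. Of 3 BH3-only genes, the nearest were AI837181 for Bbc3 at 0.96, Gnpda1 for Bid at 0.95 and Csnk2b for Bcl2l11 at 0.91. Among the members themselves Bcl2l2 and Bax had the highest coefficient, 0.80, and Bcl2 and Bcl2l11 the lowest, -0.74.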

How the data were processed

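Droplet 3′ RNA-seq counts of 2 libraries, 1 per sort gate, were read as deposited. Per the file headers and the values, the authors deposited raw UMI counts per gene and barcode, with no normalization. The submitters' processing notes name Cell Ranger 7.0.0 and mm10, and the matrix header gives software version 3.0.2. How cells were called and whether counting used strand are not given in the sources used here.

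Barcodes were kept from 1000 UMIs and 500 genes upward where mitochondrial genes gave under 15% of the UMIs. Scrublet doublets, 12 of 1893 Tom+ and 709 of 10595 Tom- cells, were left out. Cells were clustered on 2000 variable genes, 30 principal components and 15 neighbours (scanpy 1.11.5, Leiden at resolution 1). A cluster took the name of the marker list with its highest mean log2 fold, where at least 3 markers were detected. That fold had to be at least 0.25, a threshold set after the clusters were seen. Where none of the list's markers was among the 10 leading genes, at least 80% of the list had to be detected. A cluster stayed unnamed where another list had more leading genes or an adipocyte marker led a fibroblast match. The same held for shallow cells with no own leading marker. Unnamed clusters held 174 Tom+ and 1248 Tom- cells. Classes are therefore rebuilt names. UMIs were summed per class and library and given as CPM. Intervals are 95% exact Poisson for levels, conditional binomial for ratios, Clopper-Pearson for shares and conditional odds ratio for the balance difference. On simulated counts of 8679 genes for fibroblast-like cells, with 200 genes changed, 94.9% of ratio intervals held the true value. These counts were drawn from the Poisson model that the intervals assume. The simulation therefore checks the calculation and says nothing about spread between cells or animals.

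The genes named besides the members were the highest and lowest of each pathway list in fibroblast-like cells, genes behind counts of 5 or fewer, and the nearest profiles, of which that of Pmaip1 is not reported here. The members and lists were chosen with earlier results of these data known. Barcodes shared by the libraries, thinning, doublets, scaling (TMM, edgeR 4.0.16), free RNA, filters, gates and resolutions were varied.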

Additional observations from a re-analysis of the deposited data

How the results depend on the processing

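No paired analysis was possible because each group was 1 library, and for the same reason no library could be left out. Of 81 alternative values of the balance difference, 70 stayed within the counting interval, as did 694 of 730 for member ratios, and 72 of 84 counts of members 1.5 times apart stayed at 0. The fibroblast-like difference was negative in 16 of 16 alternatives, from -0.29 with equal weight per cell to -0.018 with the mean log2 level of members. Over all used cells it was -0.12 with cells thinned to 2000 UMIs, -0.15 with equal weight per cell, 0.11 with the mean log2 level and 0.054 without Mcl1. With thinned cells it was 0.34 in basal or intermediate, -0.75 in lymphatic endothelial-like and -0.26 in umbrella cells. It was -0.42 in endothelial-like cells with doublets kept and 0.039 in umbrella cells without Mcl1, which reversed it. Counts above 0 were found in endothelial-like cells with 5% free RNA removed (1), thinned cells (2), doublets kept (1), equal weight (2) and shared barcodes left out (1). They were found in lymphatic endothelial-like cells with thinned cells (1), doublets kept (2), equal weight (3), the gate on each cell (1) and no filter on low values (3), in fibroblast-like cells when thinned (2), and in mesothelial-like cells with no filter (1). Reversed log2 ratios were 0.084 for Bax in thinned endothelial-like cells, 0.093 for Bcl2 over all cells with equal weight, -0.054 for Bcl2 in fibroblast-like cells over sub-clusters at resolution 0.8, 0.16 for Mcl1 in endothelial-like cells with doublets kept and -0.044 for Mcl1 in mesothelial-like cells without shared barcodes. The cause was not tested. Counting unnamed clusters by a best fibroblast score gave no cluster, and so no value. A marker fold of at least 0.5 (fibroblast-like difference -0.12) and the Car3-led cluster counted as fibroblast-like (-0.16) were chosen after seeing the data, as were the values of clusters and pathway genes without shared barcodes. Members at a few CPM, such as Pmaip1 and Bid, were too shallow for a comparison in the classes.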

Other observations

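Barcodes that failed the filter, 890 Tom+ and 2956 Tom-, had a balance of -1.25 in Tom+ and -1.34 in Tom- barcodes, lower than the -0.60 and -0.55 of the used cells. Bax held 51.1 CPM in these Tom+ and 23.6 CPM in these Tom- barcodes. Unnamed clusters had a balance of -0.73 in Tom+ and -0.53 in Tom- cells, from 174 and 1248 cells.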
